A study of Xenopus laevis with 2 samples.

Results

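The eukaryotic elongation factors eEF1 and eEF2 were examined in the mRNA of Xenopus laevis retinal ganglion cell (RGC) axons. Genes were chosen by name from 6 symbols: eef1a1, eef1a2, eef1b2, eef1d, eef1g and eef2. Each gene name in the deposited tables was split at its commas, the final L or S that marks a homeolog was removed, and names with 1 of the 6 symbols were kept. This gave 8 of the 49348 gene names in the tables, for 5 of the 6 symbols. No row carries the plain symbol eef2. The eEF2 genes stand under eef2.1 and eef2.2, which the exact match leaves out, and they are described separately as 3 further names.

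The study grew whole eyes of embryos at stages 33/34 to 37/38 for 48 hours on filters with 1 µm pores, removed the cell bodies and sequenced the RNA of the axons. RGC axons are the only condition, with 2 replicate libraries of 500 eyes each, and the study's methods state that replicates came from different batches of embryos. No treatment, genotype or other compartment was analysed here, so the values say how much of each mRNA was found in axons and not whether it differs from the cell body. Values are FPKM, sequenced fragments scaled to the length of the transcript and the size of the library, which puts genes on the same per-length scale. The cDNA was amplified before sequencing. Whether it covered long and short transcripts evenly was not tested, so ratios between genes of different length carry this limit.

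Elongation is the step in which the ribosome reads the mRNA codon by codon. eEF1A, a GTPase, brings each aminoacyl-tRNA to the ribosome. The eEF1B complex then recharges eEF1A with GTP: eEF1B2 (eEF1B alpha) and eEF1D carry the nucleotide exchange activity, and eEF1G is the scaffold that holds them. eEF2, a second GTPase, moves the ribosome on by a codon, and it is switched off when the kinase eEF2K phosphorylates it. In mammals, eEF1A1 is made in most cells, while eEF1A2 takes over in mature neurons and muscle. Elongation factor mRNAs belong, like ribosomal protein mRNAs, to the mRNAs that start with a pyrimidine tract and respond to mTOR.

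The relative depth of the libraries was estimated from the values. A gene covered by a few whole reads takes stepped FPKM values. The most common step among 621 low gene names held 44 of them and put replicate 1 at 3.71 times the depth of replicate 2. This estimate takes the names in that step to have equal read counts in both libraries. The absolute depth is unknown, because the tables hold no counts, so no counting interval could be given. Values above 0 were listed for 3147 gene names in replicate 1 and 2872 in replicate 2. Of 12 markers of RGCs and their axons, gap43 and stmn2 were over 1 FPKM in both libraries, and the other 10, neurofilament genes and RGC transcription factors among them, were listed at 0. Of the 5 lists of markers for other cells of the eye, 4 had members over the same limit: glul and rlbp1 for Müller glia, dct for pigment epithelium, col1a1 for connective tissue and pcna for dividing cells. The other members of these 4 lists were slc1a3, aqp4, rpe65, tyr, pmel, col1a2, dcn, top2a and ccnb1, all at 0, and col3a1 and mki67. In replicates 1 and 2, col3a1 had 0.0918 and 0 FPKM, and mki67 had 0 and 0.117 FPKM. All 3 listed photoreceptor markers were at 0. Summed FPKM in replicates 1 and 2 were 546 and 841 for the RGC and axon list, 150 and 74.5 for dividing cells, 86.8 and 63.9 for pigment epithelium, 31.2 and 30.6 for connective tissue and 21.7 and 63.7 for Müller glia. The RGC and axon sum rests on 1 gene: stmn2 had 543 and 838 FPKM, and gap43 had 3.05 and 3.11 FPKM. The sums for dividing cells, pigment epithelium and connective tissue likewise rest on 1 gene each: pcna, dct and col1a1. The study reports that it checked the purity of its axon samples by RT-PCR and by immunostaining for factors of the cell body and nucleus. It calls the material pure. The part of other eye cells in the elongation factor values was not tested here.

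Of the 8 eEF1 gene names, 4 had over 1 FPKM in both libraries, and the other 4 were listed at 0 in both. The same limit was passed by 4.39% of all gene names and by 8.48% of those with a gene symbol rather than only a model number. The 4 names passed at a limit of 10 FPKM as well, eef1g.S only narrowly with 10.1 FPKM in replicate 2. The share of all gene names over that limit was not taken. At a limit of 0 FPKM the count could not differ, since the other 4 names were at 0. The median over all 8 names was 12.1 and 5.07 FPKM in replicates 1 and 2, and the median over all gene names was 0 in both. With 4 of the 8 names at 0, the eEF1 median is the midpoint between 0 and the lowest of the other 4, eef1g.S. The mRNAs in the axon were those of eEF1A1, eEF1B2 and eEF1G. No value above 0 was listed for eEF1A2 or eEF1D.

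**Figure D1:**
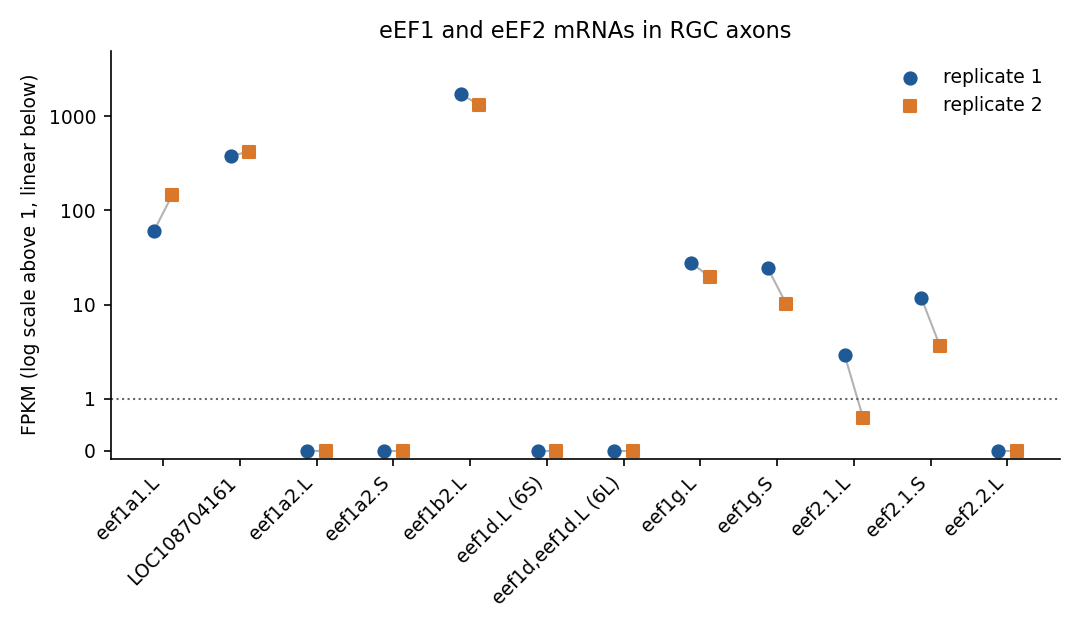
FPKM of each eEF1 and eEF2 gene name in replicate 1 (circles) and replicate 2 (squares) of RGC axons, on an axis that is logarithmic above 1 and linear below; the dotted line is 1 FPKM and a grey line joins the replicates. eef1b2.L is highest at 1730 and 1326 FPKM, eef1a2, eef1d and eef2.2 are listed at 0, and LOC108704161 is a numbered model that RefSeq names eef1a1.

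The exchange factor eEF1B2 had the most mRNA. The one gene name, eef1b2.L, had 1730 and 1326 FPKM in replicates 1 and 2, a mean of 1528 ± 286 (SD, n = 2). It lies on chromosome 9_10L from 80837419 to 80841742 of the X. laevis v9.2 genome. It ranked 73rd in replicate 1 and 112th in replicate 2 among all gene names, above 97.7% and 96.1% of the gene names with a value over 0. The libraries differed by -0.38 in log2(FPKM + 1), replicate 2 minus replicate 1. Among the 130 gene names with a mean over 1000 FPKM, the median absolute difference was 0.40, so eef1b2.L was about as reproducible as other abundant mRNAs. Of the FPKM summed over the 8 names, eef1b2.L made up 93.9% in replicate 1 and 88.3% in replicate 2. That sum, 1842 and 1502 FPKM, leaves out LOC108704161, a second eEF1A1 gene described below. With it the sum was 2221 and 1925 FPKM, so the share of eef1b2.L was smaller.

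The 3 named genes whose values in both libraries lay closest to those of eef1b2.L were set, alyref and rpl5. The measure was the distance in log2(FPKM + 1) over 2 libraries, which reflects level and the direction of the replicate difference only. The row that names set.L and set.S, a histone chaperone, had 1779 and 1243 FPKM in replicates 1 and 2 (distance 0.10). alyref.L, an mRNA export adaptor, had 1833 and 1514 FPKM (distance 0.21). rpl5.S, a protein of the large ribosomal subunit, had 1655 and 1555 FPKM (distance 0.24).

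The aminoacyl-tRNA carrier eEF1A came next, and its values depend on how the gene is named. The name eef1a1.L had 60.3 and 146 FPKM in replicates 1 and 2, a mean of 103 ± 60.6 (SD, n = 2). It was 2.42 times higher in replicate 2, the less deeply sequenced library by the estimate above. In spite of its ending, the row is on chromosome 5S, from 73745995 to 73758300. The gene sec61g.S and the model Xelaev18029461m are listed at the same coordinates, both at 0 in both libraries, so how reads were divided within this locus cannot be told from the table.

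A second eEF1A1 gene is listed under a number. The model LOC108704161, on Scaffold28 from 945980 to 977536, is called eef1a1.L by RefSeq for the newer assembly v10.1, matched by gene ID. RefSeq calls the copy on chromosome 5S eef1a1.S. slc17a5.L lies next to LOC108704161, and slc17a5.S next to the chromosome 5S copy, in the deposited table and in v10.1 alike. The name on the other side of LOC108704161 differs, LOC108704160 in the deposited table and mb21d1.L in v10.1. LOC108704161 had 379 and 424 FPKM in replicates 1 and 2, a mean of 401 ± 31.6 (SD, n = 2). The numbered model was thus above the named copy in both libraries, 6.29-fold in replicate 1 and 2.90-fold in replicate 2. The 2 copies summed to 439 and 570 FPKM in replicates 1 and 2. How reads that match both copies were divided is not known, so the split between them is uncertain. The model was looked up after its value had been seen, and it is not counted among the 8 names.

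The neuronal form eEF1A2 was not found. Its L homeolog, on chromosome 9_10L from 17454426 to 17467849, and its S homeolog, on chromosome 9_10S from 16159234 to 16174253, were listed at 0 in both libraries. The oocyte forms, eef1a1o.L and eef1a1o.S, were listed at 0 as well. A value of 0 may stand for a missing mRNA or for an estimate that failed, and 46013 of the 49348 gene names were at 0 in both libraries, so these mRNAs were not detected at this depth.

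Within the eEF1B complex, the subunits were far apart. The scaffold eEF1G had both homeologs in the axon. eef1g.L, on chromosome 4L from 26392808 to 26409459, had 27.7 and 19.8 FPKM in replicates 1 and 2. eef1g.S, on chromosome 4S from 1551658 to 1561477, had 24.2 and 10.1 FPKM. The ranges of the homeologs overlap. Both had their higher value in replicate 1, by 1.40-fold for eef1g.L and 2.39-fold for eef1g.S. The second exchange factor, eEF1D, was listed at 0 in both libraries under both of its names, eef1d.L on chromosome 6S from 126808318 to 126820186 and eef1d,eef1d.L on chromosome 6L from 152926663 to 152940550. RefSeq calls these eef1d.S and eef1d.L. Per length, eef1b2 mRNA was 33.3 times as abundant as that of both eef1g homeologs together in replicate 1, and 44.4 times in replicate 2. The proteins of eEF1B sit in one complex. The mRNAs of eEF1B2 and eEF1G lay 33.3- and 44.4-fold apart in replicates 1 and 2, while eEF1D was listed at 0.

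The ratio of eEF1B2 to eEF1A1 mRNA rests on the naming. Against eef1a1.L alone, eef1b2.L was 28.7-fold higher in replicate 1 and 9.08-fold higher in replicate 2. Against both eEF1A1 copies, it was 3.94-fold and 2.33-fold higher. In FPKM, the exchange factor was above its GTPase in both libraries under either naming. The limits given above on transcript length and on the division of reads at the eef1a1 copies apply here.

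**Figure D2:**
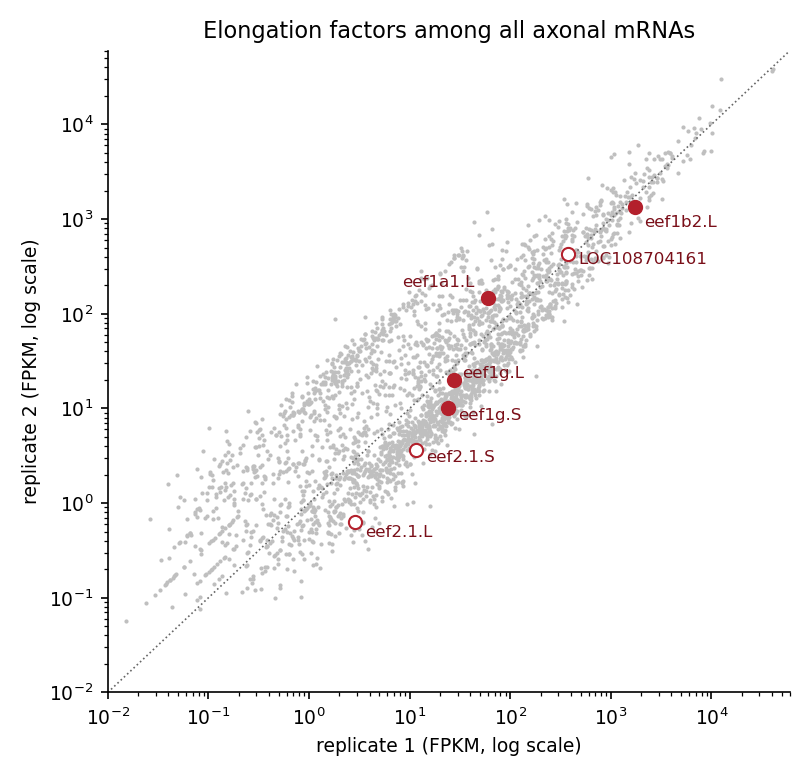
FPKM in replicate 1 (x axis) against replicate 2 (y axis), both on log scales, for each gene name above 0 in both libraries (grey); filled red points are eEF1 gene names, open red points are LOC108704161 and the eef2.1 homeologs, and the dotted line marks equal values (4 names under 0.01 FPKM lie outside the axes). eef1a1.L lies above the line at 60.3 and 146 FPKM, while eef1b2.L, both eef1g homeologs and both eef2.1 homeologs lie below it.

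The translocase eEF2 was low. The S homeolog of eef2.1, on chromosome 1S from 77974774 to 77985279, had 11.7 and 3.64 FPKM in replicates 1 and 2. The L homeolog, on chromosome 1L from 88867600 to 88876834, had 2.89 and 0.631 FPKM and so fell below 1 FPKM in replicate 2. RefSeq gives eef2 as another name of eef2.1.L. The gene eef2.2.L, on chromosome 1L from 211175615 to 211198439, was listed at 0 in both libraries. The S homeolog was above the L homeolog in both libraries, 4.06-fold in replicate 1 and 5.77-fold in replicate 2. All eEF2 names together came to 14.6 and 4.28 FPKM in replicates 1 and 2. The mRNA of eef1b2 was 118 times as high as the eef2.1 sum in replicate 1 and 310 times in replicate 2. That of both eef1g homeologs was 3.55 and 6.99 times as high.

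The order of the levels was eef1b2.L, LOC108704161, eef1a1.L, eef1g.L, eef1g.S, eef2.1.S and eef2.1.L. The first 3 were separated from each other and from eef1g.L in both libraries, with no overlap of their replicate ranges. The ranges of eef1g.L and eef1g.S overlapped, as did those of eef1g.S and eef2.1.S, so these neighbours cannot be ordered beyond their spread, although the order was the same in each library. The direction of the replicate difference varied between the names. Of the 4 eEF1 names over 1 FPKM, 3 were higher in replicate 1 and eef1a1.L was higher in replicate 2. Of all 2167 gene names over 1 FPKM in both libraries, 1175 were lower in replicate 2. The differences in log2(FPKM + 1), replicate 2 minus replicate 1, were -0.38 for eef1b2.L, -0.47 for eef1g.L, -1.18 for eef1g.S and 1.26 for eef1a1.L. The median absolute difference over the 2167 gene names with more than 1 FPKM in both was 0.98.

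The L and S homeologs of eEF1G can be set beside those of other genes. eef1g.L was 1.15 times as high as eef1g.S in replicate 1 and 1.95 times in replicate 2. X. laevis is allotetraploid, and many genes were kept as an L and an S copy. For 783 pairs, at least one homeolog was over 10 FPKM in a library. Of these, 72.9% had the same homeolog over 4-fold higher in each library, on the scale of log2(FPKM + 1). For 436 of the 783, one homeolog was listed at 0 in both libraries. With these left out, 52.7% of the remaining 347 pairs passed the same limit. eef1g did not: its L minus S difference was 0.19 in replicate 1 and 0.90 in replicate 2. When the absolute difference was averaged over the libraries, 15 of these 347 pairs had a smaller value than eef1g. eef2.1 did not pass on this scale, with -1.71 and -1.51. At such low values the added 1 decides this, since eef2.1.S over eef2.1.L was 4.06 and 5.77 in FPKM itself, over 4-fold in both libraries. For eef1a1, LOC108704161 minus the copy on chromosome 5S was 2.63 in replicate 1 and 1.53 in replicate 2, on either side of the 4-fold limit.

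**Figure D3:**
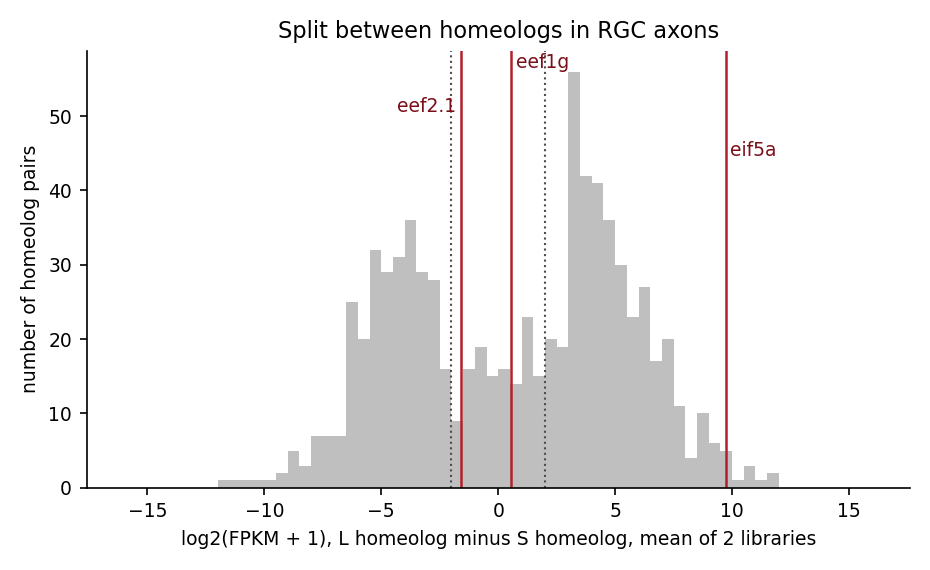
Number of homeolog pairs (y axis) by the difference of the L and the S homeolog in log2(FPKM + 1), as the mean of both libraries (x axis), for 783 pairs with a homeolog over 10 FPKM; dotted lines mark 4-fold. eef1g and eef2.1 (red lines) lie between the dotted lines, eef2.1 only because 1 is added to its low values (4.06- and 5.77-fold in FPKM), and eif5a lies far to the right, with 2238 and 4331 FPKM for the L homeolog.

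Other genes of elongation were taken from a list of 24 symbols, of which 20 are in the table under 25 gene names. Of these names, 4 (16%) had over 1 FPKM in both libraries and the other 21 were listed at 0. The limit was passed by 4.39% of all gene names and by 8.48% of those with a gene symbol. The factor eIF5A, which carries the modified lysine hypusine and helps ribosomes through stretches that are hard to read, had 2238 and 4331 FPKM in replicates 1 and 2 from its L homeolog. Its S homeolog had 1.15 and 5.26 FPKM. eif5a.L was thus 1.29 times as high as eef1b2.L in replicate 1 and 3.27 times in replicate 2. tpt1.L, whose product TCTP binds the eEF1 complex, had 3637 and 3458 FPKM, and tpt1.S was listed at 0. eefsec.S, the elongation factor for selenocysteine, had 1.73 and 22.7 FPKM, a 13.1-fold difference between the libraries that leaves its level uncertain.

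The genes that modify elongation factors were listed at 0, as most genes were. Over the whole series, 46013 of 49348 gene names were at 0 in both libraries. Among the 20480 names with a gene symbol, 17871 were. The eEF2 kinase eef2k.L, the eEF2 methyltransferase eef2kmt.L, and the listed names of dph1, dph2, dph3, dph5, dph6 and dph7, which make the diphthamide residue of eEF2, were at 0 in both libraries. So were the eEF1A methyltransferases listed as n6amt2, mettl10 and mettl13, the hypusine enzymes dhps and dohh, and vars, the valyl-tRNA synthetase that joins the eEF1 complex. The 4 listed mitochondrial factors, tsfm.L, gfm1.L, gfm2.L and guf1.L, were at 0 too. The same held for eef1e1.L, another name from the list of other elongation genes. Of the 10 gene names for termination and ribosome recycling, 4 were over 1 FPKM in both libraries, and 2 were over 10 FPKM. The limit of 1 FPKM was passed by 4.39% of all gene names and by 8.48% of those with a gene symbol. The release factor eRF3 (gspt1) had 78.0 and 70.6 FPKM from the L homeolog and 49.0 and 20.4 FPKM from the S homeolog in replicates 1 and 2. etf1.S, the release factor eRF1 that recognises stop codons, had 3.10 and 8.99 FPKM. abce1.L, which splits the ribosome after termination, had 19.9 and 5.16 FPKM, and abce1.S was listed at 0.

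The other parts of the translation machinery give a scale for these levels. Of the 8 eEF1 names, 50% had over 1 FPKM in both libraries, against 36% of 75 names whose symbol begins with eif and 94.1% of 119 ribosomal protein names. The eif list also holds eIF5A. The median of the names over the limit was 44.0 and 82.9 FPKM for the eEF1 names in replicates 1 and 2, 133 and 143 FPKM for the eif names, 655 and 770 FPKM for ribosomal proteins and 27.3 and 31.1 FPKM for all gene names. These medians hold the names over the limit only. Over all names of a list, the median was 12.1 and 5.07 FPKM for the eEF1 names and 0 in both libraries for the eif names. For ribosomal proteins it was 590 and 672 FPKM. The eEF1 value is the midpoint between 0 and eef1g.S, the lowest eEF1 name above 0. It reflects the share of names at 0 and is not a typical level. On average over the libraries, eef1b2.L was exceeded by 30 ribosomal protein names and by 3 of the eif names: eif5a.L, eif3a.L with 2850 and 2686 FPKM, and eif4g2.L with 1047 and 2143 FPKM. The replicate ranges of eif4g2.L and eef1b2.L overlap, so these names cannot be ordered beyond their spread. The same holds for some of the 30 ribosomal protein names, such as rps9.L with 590 and 2735 FPKM. eef1a1.L had a higher mean than 17 of the 112 ribosomal protein names over the limit. The 8 eEF1 names are 0.0162% of all gene names. Their FPKM came to 0.297% of the library's sum in replicate 1 and to 0.207% in replicate 2. With LOC108704161, this was 0.358% and 0.265%.

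**Figure D4:**
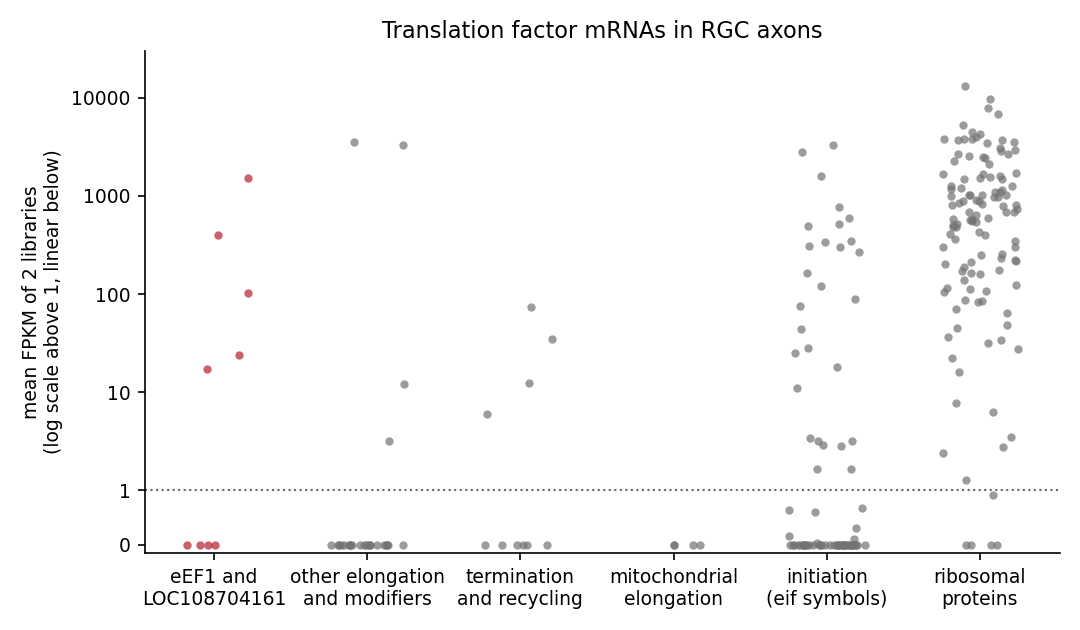
Mean FPKM of both libraries (y axis, logarithmic above 1 and linear below) for each gene name of 6 lists of translation genes, 1 point per name; the dotted line is 1 FPKM and the horizontal spread within a list has no meaning. The red points hold the 8 eEF1 names and LOC108704161, from 0 to 1528 FPKM, and 112 of the 119 ribosomal protein names are over 1 FPKM in both libraries.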

How the data were processed

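Total RNA of RGC axons was amplified as cDNA by a PCR-based single-cell method and sequenced. Per the labels and the methods, the authors mapped reads to X. laevis v9.2 with HISAT2 2.1.0 and deposited FPKM values from Cufflinks 2.1.1, unpooled. The annotation is not given in the sources used here. Amplification, and close copies that share reads, add errors that FPKM does not show.

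Rows of 1 gene name were summed, and 1 row without a gene name, with 0.129% and 0.000192% of the summed FPKM in replicates 1 and 2, was left out. Detection meant FPKM over 1 in both libraries, and log2 values used FPKM + 1. With 1 condition and 2 libraries, no test was made. Names of numbered models were matched by gene ID to RefSeq for v10.1, whose coordinates served only to find neighbouring genes. The eef1a1 copy on chromosome 5S was taken as the RefSeq gene eef1a1.S by symbol. The RefSeq names given for the eef1d names and eef2.1.L were not part of the gene ID match. No sequence is shown.

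The text names every eEF name and the 3 genes nearest to the highest member. From the lists of other elongation genes and of termination and recycling, it names those over the limit or marked as core. The eif and ribosomal protein names over the limit are not all named. Other genes at 0, rps9.L and the eif names with a mean above that of eef1b2.L were chosen after their values were seen. Members and lists were chosen with earlier results of these data known. Depth and homeolog calls were tried on simulated data. The simulated homeologs varied less between libraries than the real values, and their changes were well over the limit. That trial therefore says little about homeolog calls in these data. Alternatives were the limit, pseudocount, row handling, scaling and each replicate alone. Software was Python 3.11.15, numpy 2.4.6, pandas 2.3.3 and matplotlib 3.10.9.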

Additional observations from a re-analysis of the deposited data

How the results depend on the processing

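The number of eEF1 names over 1 FPKM in both libraries was 4 and stayed 4 in either library alone (4 to 4). It was 3 when homeologs were averaged and symbols counted, and 5 with either LOC108704161 or the eef2.1 and eef2.2 names added, both chosen after seeing the data. As the other 4 of the 8 names were at 0 in both libraries, a count from 1 library could not differ from 4. The same holds for a limit of 0 FPKM. The summed level of the 8 names, 1672 FPKM on average, was 1502 to 1842 FPKM in single libraries and 2073 FPKM with LOC108704161. Their share of all summed FPKM, 0.252%, was 0.337% without the 10 highest gene names and 0.328% without ribosomal protein genes, as the smaller total implies, and 0.207% to 0.297% in single libraries. The L minus S difference of eef1g, 0.54, was 0.19 to 0.90 in single libraries. Of the other elongation names, 4 passed 1 FPKM and 2 passed 10 FPKM, since eif5a.S and eefsec.S were below it in at least 1 library. Of the termination and recycling names, 4 passed 1 FPKM and 2 passed 10 FPKM, without etf1.S and abce1.L. None of the 57 alternative values reversed a direction. Counts, levels and shares have no direction to reverse, and a change of pseudocount cannot reverse the sign of a difference. Taking the highest row changed nothing, since each member name has 1 row. Of the 57 values, 51 moved by less than the spread between the libraries or, for counts, stayed within 1.5 times. For the level, the share and the eef1g difference, this spread was the SD of the libraries. A single library cannot move these values by more than that SD, so its agreement there was fixed in advance. For the replicate differences, the spread was in proportion to the difference itself, so staying within it says little. By the depth estimate replicate 2 was the shallower library, so its low values, such as those of eef2.1, would be the least precise. No paired analysis was possible because there is a single group.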
